A study of Mus musculus with 12 samples.

Results

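The genes of the proteasome, of its immunoproteasome form and of its assembly and activator proteins were examined in mouse dendritic cells (DCs). Members were taken by name, as genes whose symbol starts with Psm followed by a letter from a to g and a digit and that had at least 10 counts in every library, with pseudogene names left out. Of 55471 genes in the count table, 56 carried such a name and 50 were members, and all 50 passed the filter on low counts that left 18228 genes for testing. The 6 names left out were 5 pseudogenes and *Psmb11*, the catalytic subunit of the thymus, which had 0 to 4 counts per library. The member nearest to the limit was *Psmc3ip*, with 15 to 44 counts. The names also brought in a pair of genes that encode no proteasome subunit: *Psmc3ip*, a meiotic recombination factor, and *Psme3ip1*, a partner of the activator PA28γ.

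DCs were grown with GM-CSF from the bone marrow of adult female C57BL/6 mice. All cultures were transduced with the LMP retrovirus, which carries a human CD8 reporter on which the cells were sorted, and the virus held an shRNA against either firefly luciferase (shControl) or *Ppargc1b*, the gene of the co-activator PGC-1β (sh*Ppargc1b*). Cells of each kind were left unstimulated or were treated with IFN-β for 6 h, which gave 4 groups of 3 libraries. A single *Ppargc1b* hairpin was used, and the labels do not say whether the 3 libraries of a group came from separate animals or cultures, so p-values measure only the spread between these libraries. *Ppargc1b* itself was at 34.5 ± 1.94 CPM (counts per 1000000 counts of the scaled library, mean ± SD, n = 3) in unstimulated shControl DCs and 19.4 ± 0.851 CPM in unstimulated sh*Ppargc1b* DCs, and at 27.8 ± 3.93 and 18.7 ± 2.83 CPM with IFN-β, so the cells were a partial knockdown. Library totals were 49919648 to 77726101 counts. Of 8 dendritic cell markers, *Cd209a* was below 1 CPM in every library and the other 7 were tested, with *Cd74* the most abundant.

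The proteasome is the protease that degrades ubiquitin-tagged proteins. Its barrel-shaped 20S core has outer α rings and inner β rings, of which the β1, β2 and β5 subunits cut peptide bonds, and its 19S cap binds, unfolds and threads in the substrate. Interferons induce substitutes for the cutting subunits, which are built into newly assembled cores as the immunoproteasome, and the PA28αβ ring that can dock in place of a 19S cap. Peptides made by these particles are carried into the endoplasmic reticulum and loaded on MHC class I, which DCs use to prime CD8+ T cells.

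The RefSeq windows around the starts of the 5 inducible genes are shown first, because these genes rose together with IFN-β, with *Psmg4* and *Psmb3* as members that carry an interferon motif and rose less or did not pass the test. Each window is 300 bases long, from 250 bases before to 50 bases after a RefSeq transcription start (GRCm38.p6), written 5′ to 3′ on the strand of the gene. Capitals mark matches to the core letters of the interferon-stimulated response element, GAAANNGAA, and to the gamma-activated site, TTCNNNGAA, searched on both strands, and no match in these windows overlaps another.
Psmb8, chr17:34197945-34198244, plus strand: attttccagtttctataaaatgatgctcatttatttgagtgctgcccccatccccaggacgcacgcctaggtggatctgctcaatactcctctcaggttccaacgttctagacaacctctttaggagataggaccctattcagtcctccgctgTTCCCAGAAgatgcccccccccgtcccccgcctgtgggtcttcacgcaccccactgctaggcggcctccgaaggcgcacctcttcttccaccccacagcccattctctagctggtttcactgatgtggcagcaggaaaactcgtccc
Psmb9, chr17:34187281-34187580, minus strand: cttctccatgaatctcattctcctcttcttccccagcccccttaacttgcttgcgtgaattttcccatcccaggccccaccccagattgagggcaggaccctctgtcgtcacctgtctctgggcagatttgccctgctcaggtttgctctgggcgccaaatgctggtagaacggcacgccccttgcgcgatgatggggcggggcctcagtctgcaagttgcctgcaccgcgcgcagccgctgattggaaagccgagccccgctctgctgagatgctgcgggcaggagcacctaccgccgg
Psmb10, chr8:105938343-105938642, minus strand: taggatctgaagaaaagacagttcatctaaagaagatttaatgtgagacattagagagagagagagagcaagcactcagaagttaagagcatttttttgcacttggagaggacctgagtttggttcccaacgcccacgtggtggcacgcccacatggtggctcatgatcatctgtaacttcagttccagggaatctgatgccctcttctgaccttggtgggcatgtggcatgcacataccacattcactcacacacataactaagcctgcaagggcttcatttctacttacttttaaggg
Psme1, chr14:55578244-55578543, plus strand: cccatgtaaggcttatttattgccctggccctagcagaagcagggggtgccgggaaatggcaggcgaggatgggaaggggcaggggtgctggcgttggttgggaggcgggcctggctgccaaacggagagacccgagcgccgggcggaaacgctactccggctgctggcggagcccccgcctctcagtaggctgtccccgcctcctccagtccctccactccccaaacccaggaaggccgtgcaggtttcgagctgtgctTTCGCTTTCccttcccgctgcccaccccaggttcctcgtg
Psme2, chr14:55591052-55591351, minus strand: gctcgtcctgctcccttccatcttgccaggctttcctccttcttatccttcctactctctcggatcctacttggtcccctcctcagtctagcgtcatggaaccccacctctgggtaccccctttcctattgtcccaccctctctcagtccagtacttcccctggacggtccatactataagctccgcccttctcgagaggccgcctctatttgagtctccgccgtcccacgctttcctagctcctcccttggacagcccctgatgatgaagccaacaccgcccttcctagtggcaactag
Psmg4, chr13:34162714-34163013, plus strand: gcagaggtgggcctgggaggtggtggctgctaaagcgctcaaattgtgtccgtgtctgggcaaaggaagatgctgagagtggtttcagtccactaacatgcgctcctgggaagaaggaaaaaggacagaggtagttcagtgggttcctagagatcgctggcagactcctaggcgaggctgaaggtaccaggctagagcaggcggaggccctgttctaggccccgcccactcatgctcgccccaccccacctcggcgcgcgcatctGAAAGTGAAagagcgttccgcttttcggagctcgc
Psmb3, chr11:97703184-97703483, plus strand: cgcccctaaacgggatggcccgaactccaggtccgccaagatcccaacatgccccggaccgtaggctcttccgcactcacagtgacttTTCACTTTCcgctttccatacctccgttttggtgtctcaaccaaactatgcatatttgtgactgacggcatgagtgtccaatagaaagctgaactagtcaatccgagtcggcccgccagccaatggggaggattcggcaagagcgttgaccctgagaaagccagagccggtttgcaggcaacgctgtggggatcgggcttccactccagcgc

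*Psme1* held the response element core (TTCGCTTTC on the shown strand) from base 11 after its start, *Psmg4* (GAAAGTGAA) from base 16 after its start, and *Psmb3* (TTCACTTTC) from 162 bases before its start. *Psmb8* held the gamma-activated site (TTCCCAGAA) from 97 bases before its start. The windows of *Psmb9*, *Psmb10* and *Psme2* held neither string of letters. The RefSeq starts used for *Psmb8*, *Psmb9* and *Psme1* lie 474, 434 and 371 bases inside the gene as GENCODE annotates it, so these 3 windows lie wholly within the gene and do not cover the sequence before its GENCODE 5′ end. RefSeq gave 46 windows for 42 of the 50 members. For 8 of the 42, these 3 included, the window nearest the 5′ end of the gene lay wholly within the gene. A member was counted for a motif if any of its windows held it, while the shares of all windows are per window. The response element core was in 7 of these 42, against 8.56% of all 32851 windows, and the gamma-activated site in 3 of them, against 8.30% of all windows. The antioxidant response element TGACNNNGC was in 6 of the 42, among them *Psmb5* and *Psmb6*, against 12.4% of all windows. Of the 29 members with a window that rose with IFN-β in shControl DCs, 4 held the response element core, and of the 10 that did not pass the test, 3 held it. The *Psmb9* window overlaps that of *Tap1*, the peptide transporter gene that starts on the opposite strand. A match to these letters is a description of the window and was not tested as a binding site.

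To see which of these genes changed with IFN-β, treated DCs were compared with unstimulated DCs of the same shRNA. In shControl DCs, 32 of the 50 members rose and 6 fell (edgeR quasi-likelihood test, adjusted p under 0.05). Over all genes tested, 48.2% passed, 23.7% as rises and 24.6% as falls. The 5 inducible genes *Psmb8*, *Psmb9*, *Psmb10*, *Psme1* and *Psme2* all rose, with a median log2 fold change of 1.56, and of the other 45 members 27 rose and 6 fell, with a median of 0.15. The median of all genes tested was -0.03. In sh*Ppargc1b* DCs, 21 members rose and 6 fell, where 42.6% of all genes passed, 21.4% as rises and 21.2% as falls. There the inducible genes had a median of 1.29 and the other members a median of 0.06, against -0.02 for all genes. The rises of the inducible genes did not depend on how libraries were scaled, but the split of the other members did. When libraries were scaled by their totals alone, which moved the median of all genes to -0.27 in shControl and -0.22 in sh*Ppargc1b* DCs, the members called were 17 higher and 19 lower in shControl and 15 higher and 22 lower in sh*Ppargc1b* DCs. All 5 inducible genes rose under that scaling too. Relative to the median of all genes, the median of the other members was 0.18 higher in shControl and 0.07 higher in sh*Ppargc1b* DCs, a distance that scaling hardly moves by its construction.

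**Figure D1:**
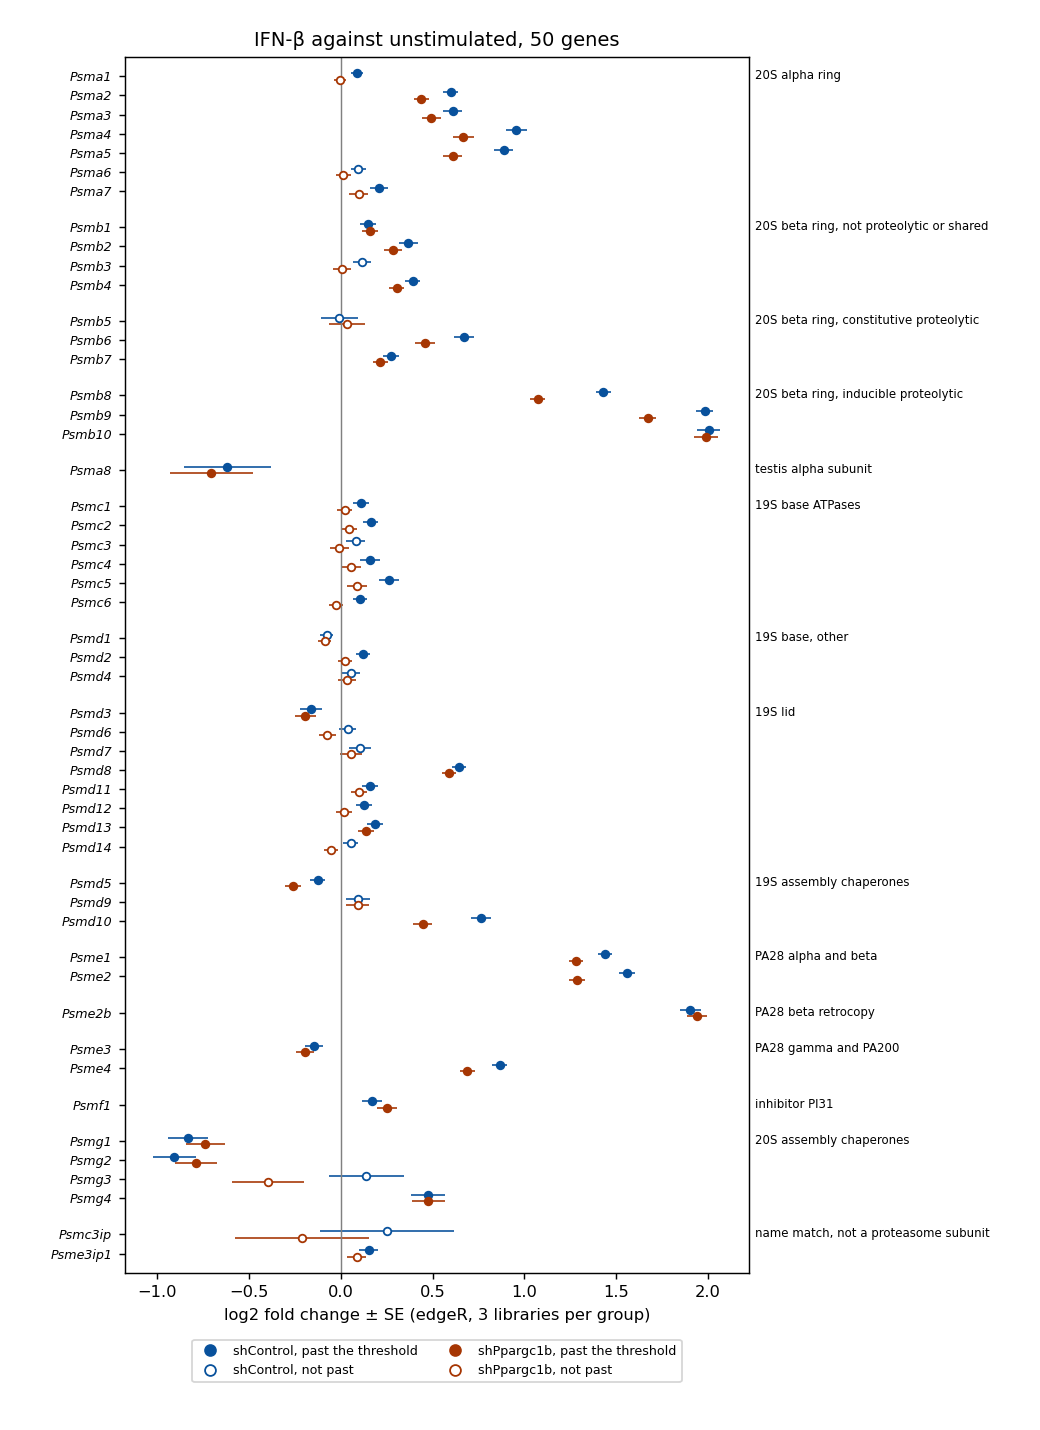
IFN-β against unstimulated DCs for the 50 members, grouped by role; the horizontal axis is the log2 fold change, bars are the SE, blue is shControl, brown is shPpargc1b, and filled points passed the test. The 5 inducible genes and Psme2b lie between 1.07 and 2.004 in both cell types, and no other member exceeds 0.96.

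All 3 substitutes for the cutting subunits rose in both cell types, and *Psmb8* rose least of the 5 inducible genes in each. *Psmb8* (ENSMUSG00000024338, GRCm38 chr17:34197721-34201454, plus strand), which replaces the β5 subunit with its chymotrypsin-like activity, was at 61.8, 58.4 and 60.0 CPM in the unstimulated shControl libraries and at 159, 164 and 162 CPM with IFN-β. In sh*Ppargc1b* DCs it was at 66.0, 70.4 and 70.7 CPM without and at 140, 147 and 148 CPM with IFN-β. The treated libraries were far above the unstimulated ones in both cell types, and the 2 cell types were in opposite order without and with IFN-β, with no overlap in either state. *Psmb8* rose 2.69-fold in shControl DCs (log2 fold change 1.43 ± 0.04, SE, adjusted p = 1.28e-13 by edgeR) and 2.10-fold in sh*Ppargc1b* DCs (1.07 ± 0.04, adjusted p = 5.03e-12).

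*Psmb9* (ENSMUSG00000096727, chr17:34181987-34187764, minus strand), which replaces β1, lies beside *Psmb8* in the MHC locus. It was at 27.1, 26.4 and 24.8 CPM in unstimulated and 101, 103 and 105 CPM in treated shControl libraries. The sh*Ppargc1b* libraries held 30.1, 27.9 and 30.2 CPM without and 93.1, 91.9 and 95.7 CPM with IFN-β, so here too the knockdown libraries were above the controls before and below them after treatment, without overlap. The rise was 3.95-fold in shControl DCs (1.98 ± 0.05, edgeR adjusted p = 1.55e-14) and 3.18-fold in sh*Ppargc1b* DCs (1.67 ± 0.05, adjusted p = 1.35e-13). Part of the exons of both genes is shared with transcripts of the opposite strand, 14.7% for *Psmb8* (with Gm20496) and 5.79% for *Psmb9* (with *Tap1*), and no source used here states whether counting was stranded.

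*Psmb10* (ENSMUSG00000031897, chr8:105935735-105938444, minus strand), which replaces β2, lies outside the MHC locus. Its rise was the highest estimate of all 50 members in both cell types, though close to that of *Psmb9* (1.98) in shControl DCs. Its unstimulated libraries held 24.0, 25.2 and 28.1 CPM in shControl and 23.0, 23.2 and 22.5 CPM in sh*Ppargc1b* DCs, and its treated libraries held 98.5, 99.4 and 112 CPM and 89.4, 88.0 and 95.1 CPM. Unlike *Psmb8* and *Psmb9*, it was lower in the knockdown libraries in both states. The rise was 4.01-fold in shControl (2.004 ± 0.06, edgeR adjusted p = 4.05e-13) and 3.97-fold in sh*Ppargc1b* DCs (1.99 ± 0.06, adjusted p = 6.44e-13).

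**Figure D2:**
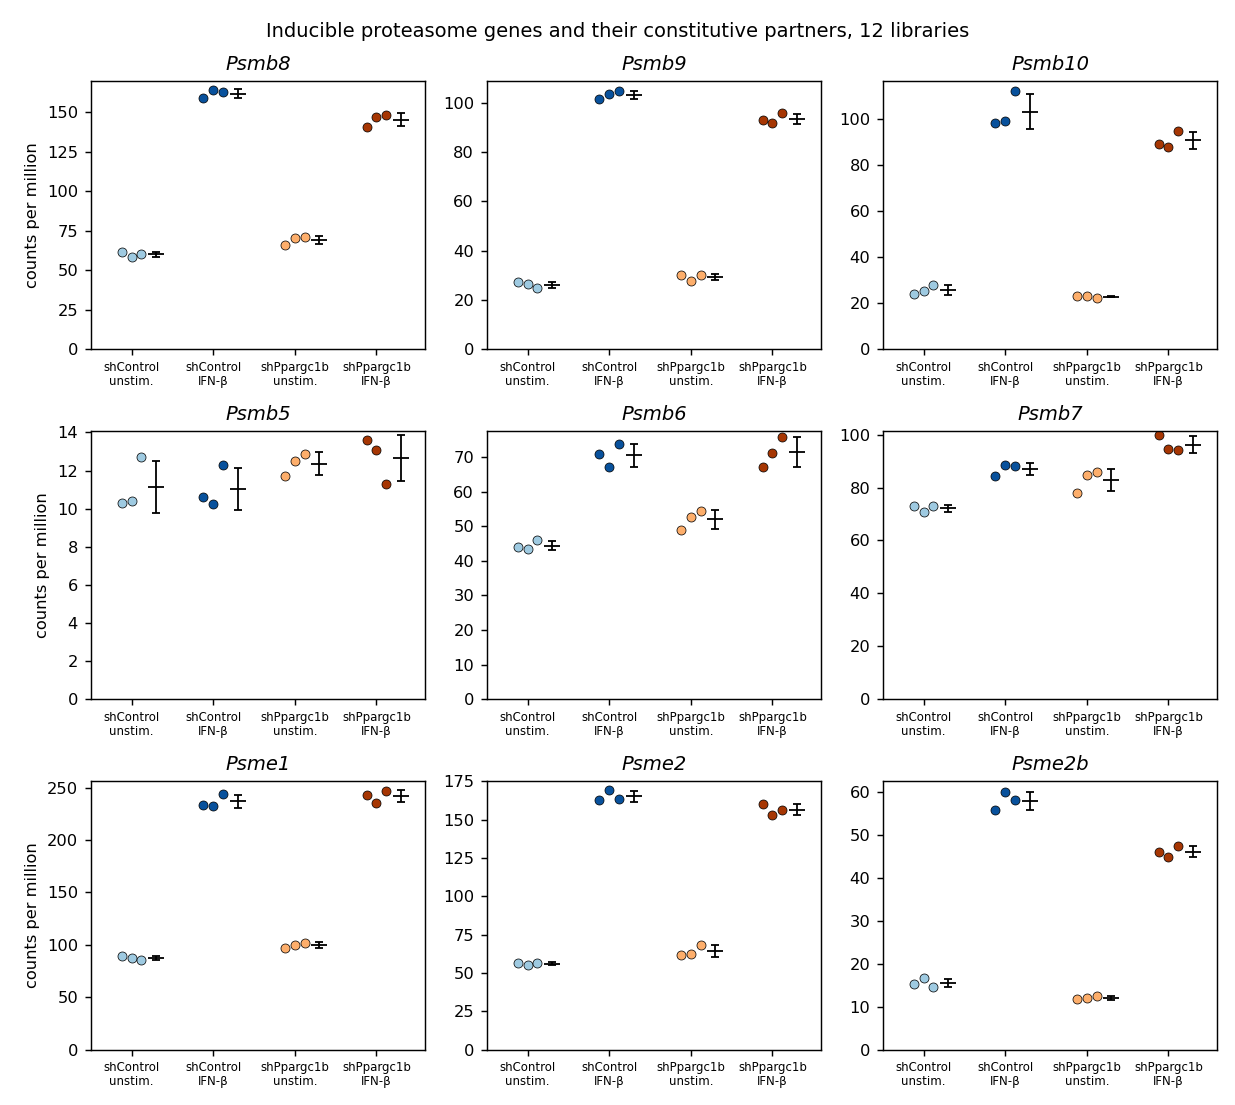
CPM in each of the 12 libraries for the inducible catalytic genes (top row), their constitutive partners (middle row) and the PA28αβ genes with the retrocopy Psme2b (bottom row); points are libraries and bars are the mean ± SD of 3. Psmb8 goes from 58.4 to 61.8 up to 159 to 164 in shControl DCs, while the Psmb5 libraries of all 4 groups lie between 10.2 and 13.6.

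The constitutive cutting subunits moved less and not together. *Psmb5* (β5, ENSMUSG00000022193, chr14:54614119-54618022, minus strand) was at 10.3, 10.4 and 12.7 CPM in unstimulated and 10.6, 10.2 and 12.3 CPM in treated shControl libraries, which overlapped. Its log2 change was -0.01 in shControl (95% interval -0.20 to 0.19) and 0.03 in sh*Ppargc1b* DCs (-0.16 to 0.23). Neither passed the edgeR test, with adjusted p of 0.952 and 0.821, although the shControl value was -0.25 (adjusted p = 0.0454) when libraries were scaled by their totals alone. Of its 100-base stretches, 22.2% also occur in other genes, Gm3375 and Mir686, and read pairs that map to more than 1 place were not counted. *Psmb6* (β1) rose from 44.4 ± 1.35 to 70.5 ± 3.35 CPM in shControl DCs (0.67 ± 0.06, adjusted p = 6.07e-08) and by 0.46 ± 0.05 in sh*Ppargc1b* DCs (adjusted p = 5.84e-06), the largest rise of the 3. *Psmb7* (β2) rose by 0.27 ± 0.04 and 0.22 ± 0.04 (adjusted p = 8.77e-05 and 0.000792), rises that were lost under scaling by totals alone.

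Because a pair of subunits competes for each catalytic position, the level of the inducible gene was also expressed as a percent of the summed level of its pair, in CPM per kilobase of annotated exon. This share does not depend on library scaling. *Psmb8* made up 61.4, 59.9 and 55.7% of *Psmb8* plus *Psmb5* in unstimulated and 79.9, 81.0 and 77.9% in treated shControl libraries. In sh*Ppargc1b* DCs the shares were 60.0, 60.0 and 59.4% without and 73.3, 74.9 and 77.7% with IFN-β. The unstimulated groups overlapped, and the treated sh*Ppargc1b* libraries were all below the treated shControl libraries by a narrow margin. *Psmb9* went from 23.2 ± 1.31% to 42.8 ± 1.11% of *Psmb9* plus *Psmb6* in shControl and from 22.4 ± 1.35% to 40.2 ± 1.17% in sh*Ppargc1b* DCs (SD, n = 3). *Psmb10* went from 41.7 ± 1.91% to 70.4 ± 1.36% of *Psmb10* plus *Psmb7* in shControl and from 35.7 ± 1.36% to 65.4 ± 1.38% in sh*Ppargc1b* DCs, and for this pair the knockdown libraries were below the control libraries in both states without overlap. So per length, *Psmb8* was the more abundant transcript of its pair in every library, *Psmb9* the less abundant one in every library, and *Psmb10* changed from the minor to the major transcript with IFN-β. The absolute share depends on which exons count as the length of a gene. With the longest transcript in place of all exons, the *Psmb8* share rose from 71.8 to 87.3% and the *Psmb9* share from 16.5 to 32.9% in shControl DCs. Without length correction the *Psmb9* share was 59.4% in treated shControl and 56.7% in treated sh*Ppargc1b* DCs. The *Psmb10* share was then 54.2 and 48.6%, so the order within these pairs depends on the length used. The *Psmb8* share was not corrected for read pairs of *Psmb5* that map to more than 1 place.

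**Figure D3:**
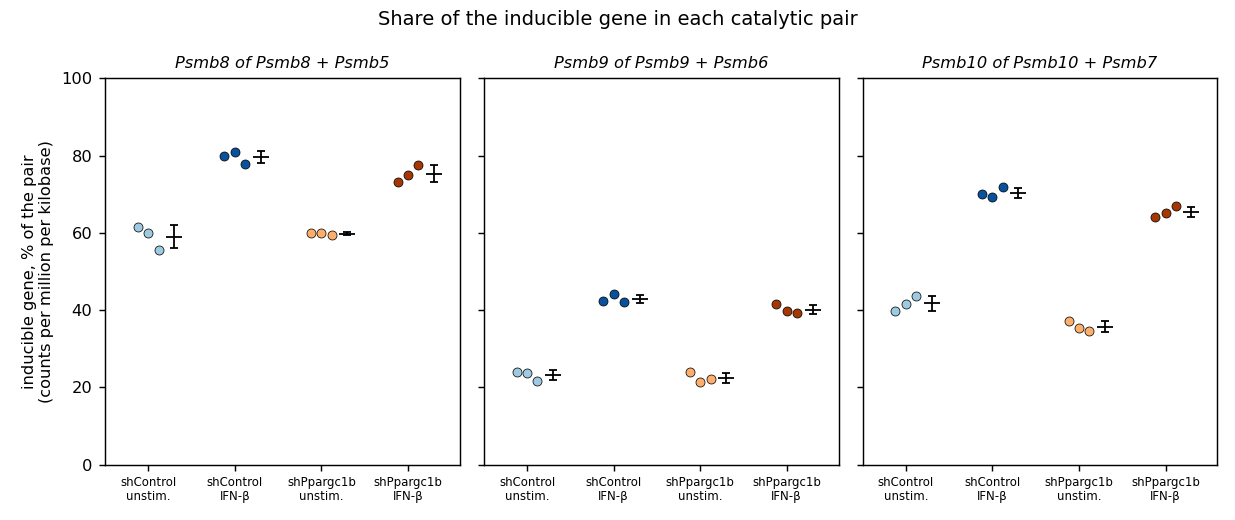
Level of the inducible gene as a percent of its catalytic pair (vertical axis, from CPM per kilobase of exon) in each of the 12 libraries, with the mean ± SD of 3 beside the points. In shControl DCs the mean shares went from 59.0 to 79.6%, from 23.2 to 42.8% and from 41.7 to 70.4% with IFN-β.

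The genes of the PA28αβ activator rose alike. *Psme1* (ENSMUSG00000022216, chr14:55578123-55581529, plus strand), which encodes PA28α, was at 89.2, 87.3 and 85.7 CPM in unstimulated and 234, 232 and 244 CPM in treated shControl libraries, and at 97.0, 100.2 and 102 CPM and 243, 235 and 247 CPM in sh*Ppargc1b* DCs. It rose 2.71-fold (1.44 ± 0.04, edgeR adjusted p = 5.59e-14) and 2.43-fold (1.28 ± 0.04, adjusted p = 2.96e-13), and the treated libraries of the 2 cell types overlapped. *Psme2* (ENSMUSG00000079197, chr14:55587441-55591113, minus strand), which encodes PA28β, was at 56.3, 55.2 and 56.8 CPM and rose to 163, 169 and 164 CPM in shControl, and went from 61.8, 62.3 and 68.5 CPM to 160, 153 and 157 CPM in sh*Ppargc1b* DCs. It rose 2.94-fold (1.56 ± 0.04, adjusted p = 1.01e-13) and 2.44-fold (1.29 ± 0.04, adjusted p = 1.15e-12), with the knockdown libraries above the controls before and below them after treatment. Per kilobase of exon, *Psme1* had the highest mean level of all 50 members in both treated groups, at 107 and 110 CPM per kilobase, after rank 5 and 4 in the unstimulated groups.

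*Psme2b*, an intronless copy of *Psme2* on chr11:48945354-48946190, rose from 15.5 ± 0.969 to 57.9 ± 2.12 CPM in shControl DCs (1.90 ± 0.05, adjusted p = 1.42e-13) and from 12.01 ± 0.381 to 46.1 ± 1.32 CPM in sh*Ppargc1b* DCs (1.94 ± 0.06, adjusted p = 2.03e-13). Of its 100-base stretches, 52.0% also occur in *Psme2*, and 18.4% of those of *Psme2* occur in *Psme2b*, so the levels of both are uncertain. The other activators went different ways: *Psme4*, which encodes PA200, rose from 198 ± 5.69 to 360 ± 10.5 CPM in shControl DCs (0.86 ± 0.04, adjusted p = 6.24e-11) and by 0.69 ± 0.04 in sh*Ppargc1b* DCs (adjusted p = 1.40e-09). *Psme3*, which encodes the nuclear activator PA28γ, fell by 0.15 ± 0.05 (adjusted p = 0.0229) and by 0.20 ± 0.05 (adjusted p = 0.00442). The shControl fall of *Psme3* was lost without any one of the 3 treated shControl libraries or without unstimulated shControl replicate 3, at adjusted p of 0.0725 to 0.0901. *Psmf1*, which encodes the inhibitor PI31, rose by 0.17 ± 0.05 and 0.25 ± 0.05 (adjusted p = 0.0158 and 0.00128).

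In the rest of the 20S core, 6 of the 7 genes of the α ring rose in shControl DCs (median 0.60) and 4 of 7 in sh*Ppargc1b* DCs (median 0.44). *Psma4* was at 50.7, 44.3 and 49.4 CPM in unstimulated and 93.9, 94.9 and 91.4 CPM in treated shControl libraries, and at 47.5, 51.1 and 54.2 CPM and 82.6, 77.6 and 82.6 CPM in sh*Ppargc1b* DCs. *Psma5* was at 26.9 ± 0.944 and 49.6 ± 0.753 CPM in shControl and at 28.8 ± 1.84 and 43.9 ± 1.62 CPM in sh*Ppargc1b* DCs. For both genes the treated knockdown libraries lay below the treated control libraries. *Psma4* rose by 0.96 ± 0.06 and 0.67 ± 0.06 and *Psma5* by 0.89 ± 0.05 and 0.61 ± 0.05, with adjusted p from 1.11e-09 to 1.42e-07. *Psma1*, the most abundant member of the ring in CPM, rose by only 0.09 ± 0.03 in shControl DCs (adjusted p = 0.0373) and had -0.0023 ± 0.03 in sh*Ppargc1b* DCs (adjusted p = 0.968). Among the 4 β genes without catalytic activity, *Psmb1*, *Psmb2* and *Psmb4* rose in both cell types and *Psmb3* passed in neither, with 0.12 and 0.01. *Psma8*, an α subunit of the testis, was at 1.24 to 2.37 CPM in the group means and fell by 0.62 ± 0.24 and 0.71 ± 0.23 (adjusted p = 0.0410 and 0.0206), which rests on 57 to 192 counts per library and was lost in 5 of the 12 fits with 1 library fewer in shControl (adjusted p = 0.0554 to 0.169) and in 3 of them in sh*Ppargc1b* DCs (0.0616 to 0.0988).

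In the 19S cap, 5 of the 6 ATPase genes of the base rose in shControl DCs and 0 of 6 in sh*Ppargc1b* DCs, where DESeq2, limma voom and an unadjusted p under 0.05 also gave 0. The rises were small, with a median of 0.16 and a range of 0.105 to 0.26 over these 5 genes, and were called lower or not at all under scaling by totals alone. *Psmc5* rose most, by 0.26 ± 0.06 (adjusted p = 0.000997), and had 0.09 ± 0.05 in sh*Ppargc1b* DCs (adjusted p = 0.215). The interaction passed for 0 of the 6 by edgeR, DESeq2 or limma voom, with 2 at an unadjusted p under 0.05, so their responses were not shown to differ between the cell types. Of the 8 lid genes 4 rose and 1 fell in shControl and 2 rose and 1 fell in sh*Ppargc1b* DCs. *Psmd8*, the lid gene with the highest CPM, rose from 196 ± 2.01 to 307 ± 12.02 CPM in shControl DCs (0.64 ± 0.04, adjusted p = 1.92e-09) and by 0.59 ± 0.04 in sh*Ppargc1b* DCs (adjusted p = 7.32e-09). *Psmd3*, the lid gene with the lowest CPM, fell by 0.16 ± 0.06 and 0.19 ± 0.06 (adjusted p = 0.0341 and 0.0145). Its fall in shControl DCs was not called by DESeq2, nor by edgeR with DESeq2 size factors. Of the other base genes, *Psmd2* and the ubiquitin receptor gene *Psmd4* had 0.12 and 0.05 in shControl and 0.02 and 0.03 in sh*Ppargc1b* DCs, and only *Psmd2* in shControl DCs passed (adjusted p = 0.0150).

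The assembly chaperones did not move as one group. *Psmg1* and *Psmg2*, which encode the partners that together start the α ring, were among the members that fell most. *Psmg1* went from 6.51, 8.24 and 7.004 to 3.802, 4.18 and 4.24 CPM in shControl and from 6.73, 7.87 and 7.40 to 4.44, 4.71 and 4.04 CPM in sh*Ppargc1b* DCs. *Psmg2* went from 5.32, 4.46 and 5.20 to 2.38, 2.61 and 2.95 CPM and from 4.91, 4.95 and 4.89 to 2.57, 2.94 and 3.01 CPM. Treated and unstimulated libraries did not overlap for either gene in either cell type. *Psmg1* fell by 0.83 ± 0.11 and 0.74 ± 0.11 (adjusted p = 1.09e-05 and 4.43e-05) and *Psmg2* by 0.91 ± 0.12 and 0.79 ± 0.12 (adjusted p = 8.62e-06 and 4.38e-05). *Psmg4*, whose product works with that of *Psmg3*, rose by 0.47 ± 0.09 and 0.48 ± 0.09 (adjusted p = 0.000507 and 0.000529). *Psmg3* had 0.14 ± 0.21 and -0.40 ± 0.19 and passed in neither, at 0.919 to 1.47 CPM in the group means. Among the chaperones of the 19S base, *Psmd10*, which encodes gankyrin, rose by 0.76 ± 0.05 and 0.45 ± 0.05 (adjusted p = 9.14e-09 and 5.44e-06), and *Psmd5* fell by 0.13 ± 0.04 and 0.26 ± 0.04 (adjusted p = 0.0223 and 0.000129). *Pomp*, a chaperone outside the name rule that guides β ring assembly, rose by 0.64 ± 0.04 and 0.51 ± 0.04 (adjusted p = 1.85e-09 and 3.33e-08).

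To see whether the same genes differed with the knockdown, sh*Ppargc1b* DCs were compared with shControl DCs. Without IFN-β, 22 of the 50 members were higher and 1 was lower, where 23.6% of all genes tested passed, 12.4% as higher and 11.1% as lower. The differences were small: the median over the members was 0.12, against -0.0049 for all genes, and among those that passed *Psmd10*, at 0.26, had the next largest difference after *Psmg3* and *Psme2b*. *Psmb8* was higher by 0.20 ± 0.04 (adjusted p = 0.00181), *Psmb9* by 0.17 ± 0.05 (adjusted p = 0.0146), *Psme1* by 0.19 ± 0.04 (adjusted p = 0.00164) and *Psme2* by 0.19 ± 0.04 (adjusted p = 0.00378). For each of these 4 genes the 3 knockdown libraries were all above the 3 control libraries, at the values given above. *Psmb10* had -0.17 ± 0.06, with all knockdown libraries below the controls, and did not pass (adjusted p = 0.0669), although it did without unstimulated shControl replicate 1 (adjusted p = 0.0334) and without treated shControl replicate 3 (adjusted p = 0.0452). *Psmb10* also passed under scaling by totals alone (adjusted p = 0.0497). The call of *Psmb9* was lost without unstimulated shControl replicate 3 (adjusted p = 0.0677) or unstimulated sh*Ppargc1b* replicate 3 (adjusted p = 0.0557). It was also lost when only the groups compared were fitted (adjusted p = 0.06).

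Of the 31 constitutive 20S and 19S subunits, 15 were higher in unstimulated sh*Ppargc1b* DCs and 0 lower, at an unadjusted p under 0.05 also 0 lower, and all 31 estimates were above 0. Over all genes tested, 12.4% were higher and 11.1% lower, and 50.9% of estimates were below 0. They ranged from 0.02 for *Psmd13* to 0.23 for *Psmc5*, with a median of 0.12, and 11 passed as higher and 0 as lower under scaling by totals alone. *Psmb6* was higher by 0.23 ± 0.06 (adjusted p = 0.00621) and *Psmb7* by 0.20 ± 0.04 (adjusted p = 0.00333), and *Psmb5* had 0.15 ± 0.10 (adjusted p = 0.314). *Psmc5*, an ATPase of the base, went from 29.3 ± 1.2 to 34.4 ± 2.63 CPM, a difference of 0.23 ± 0.06 (adjusted p = 0.00567). *Psmd10* was higher by 0.26 ± 0.05 (adjusted p = 0.00219). *Psmg3* was at 1.02, 0.819 and 0.922 CPM in the controls and at 1.45, 1.45 and 1.52 CPM in the knockdown libraries, the largest difference of the members, at 0.68 ± 0.20 (adjusted p = 0.0201). This call was lost without unstimulated shControl replicate 2 or 3 or sh*Ppargc1b* replicate 3, at adjusted p of 0.0512 to 0.0792. *Psme2b* was lower by 0.36 ± 0.06 (adjusted p = 0.000209), opposite to *Psme2*.

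**Figure D4:**
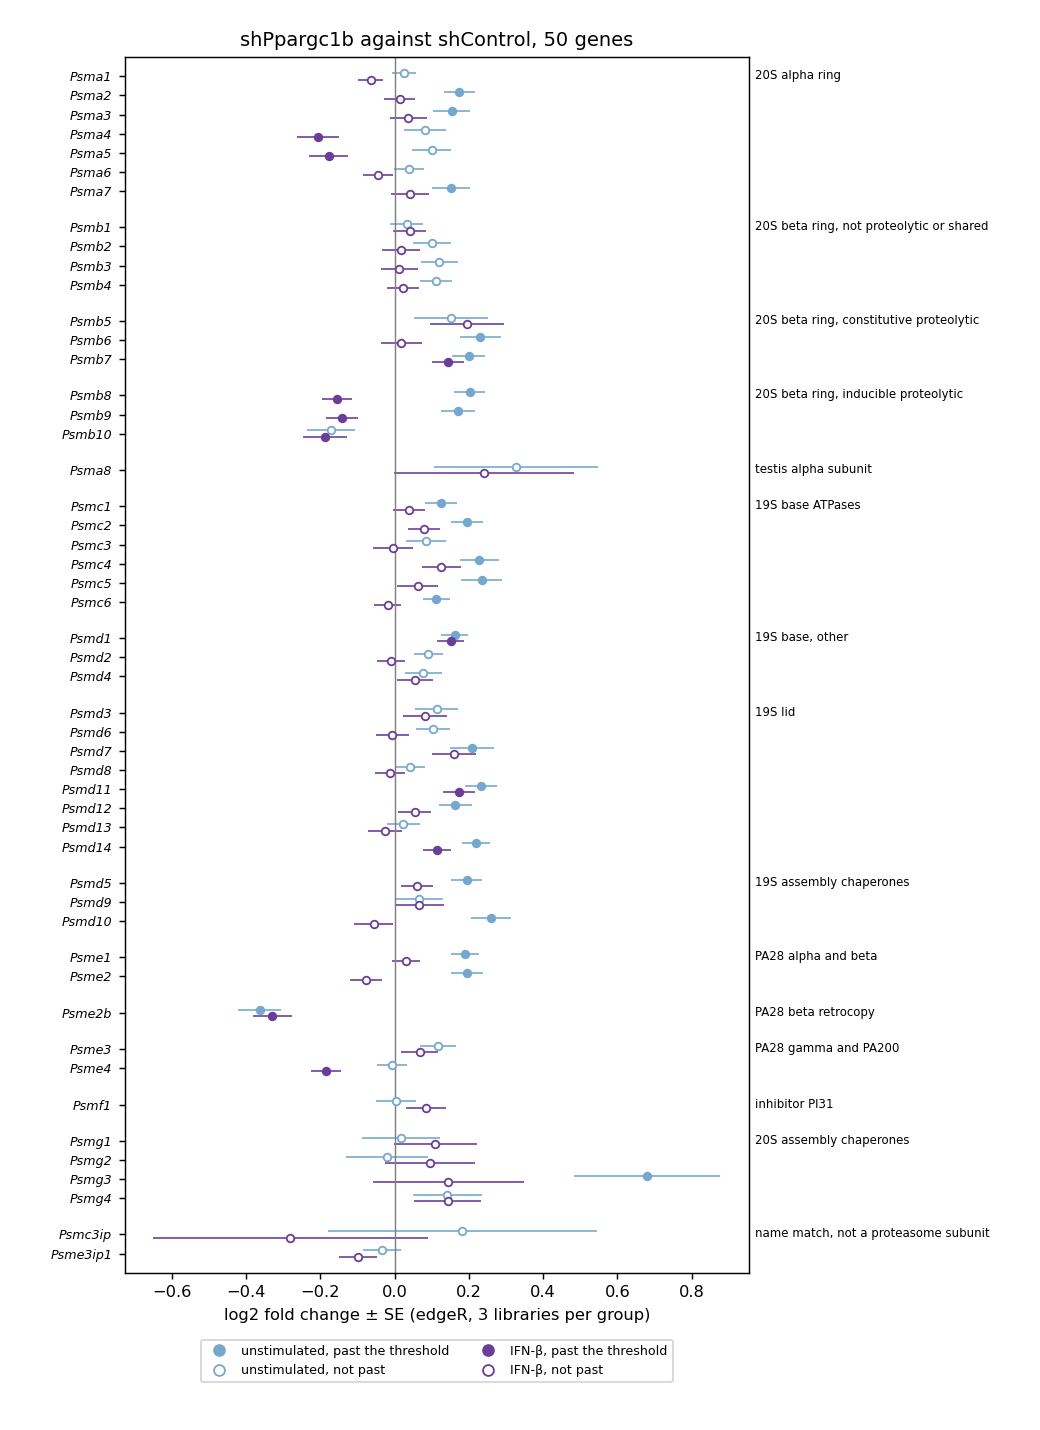
Difference of shPpargc1b from shControl DCs for the 50 members, grouped by role; the horizontal axis is the log2 fold change, bars are the SE, light blue is without and purple is with IFN-β, and filled points passed the test. Without IFN-β all 31 constitutive 20S and 19S subunits lie above 0, and with IFN-β 21 of them do. Of all genes tested, 50.9% lie below 0 without and 52.0% with IFN-β.

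With IFN-β, 4 members were higher and 7 were lower in sh*Ppargc1b* DCs, where 24.2% of all genes passed, 11.5% as higher and 12.7% as lower, so the share of members that passed was near that of all genes. Under scaling by totals alone, 5 were higher and 5 lower, and only 1 of the lower ones was an inducible gene. The 3 inducible catalytic genes were lower, *Psmb8* by 0.16 ± 0.04 (adjusted p = 0.00930), *Psmb9* by 0.14 ± 0.04 (adjusted p = 0.0280) and *Psmb10* by 0.19 ± 0.06 (adjusted p = 0.0318). *Psme1* and *Psme2* had 0.03 ± 0.04 and -0.08 ± 0.04 and did not pass. None of the 5 was higher by edgeR, by DESeq2, by limma voom or at an unadjusted p under 0.05. *Psme2b* (-0.33 ± 0.05, adjusted p = 0.000249), *Psma4* (-0.21 ± 0.06, adjusted p = 0.0128), *Psme4* (-0.18 ± 0.04, adjusted p = 0.00327) and *Psma5* (-0.18 ± 0.05, adjusted p = 0.0201) were the others that were lower. The members that were higher were the lid genes *Psmd11* (0.17 ± 0.04, adjusted p = 0.00835) and *Psmd14* (0.11 ± 0.04, adjusted p = 0.0405), the base gene *Psmd1* (0.15 ± 0.04, adjusted p = 0.00690) and *Psmb7* (0.14 ± 0.04, adjusted p = 0.0245). These calls depended on single libraries: the count fell to 6 without treated shControl replicate 3 or treated sh*Ppargc1b* replicate 1 and to 7 without treated sh*Ppargc1b* replicate 2. *Psmb9* lost its call without unstimulated shControl replicate 1 or 2, treated shControl replicate 3, unstimulated sh*Ppargc1b* replicate 1 or 3 or treated sh*Ppargc1b* replicate 1 or 2, at adjusted p of 0.0514 to 0.0742. *Psmb10* lost it without unstimulated shControl replicate 2, treated shControl replicate 3, any unstimulated sh*Ppargc1b* replicate or treated sh*Ppargc1b* replicate 1 or 2, at adjusted p of 0.0604 to 0.142. *Psmb8* kept its call in every fit that left out 1 library, but lost it when all genes of at least 1 count were tested (adjusted p = 0.0572). *Psmb9* lost its call in that fit too (adjusted p = 0.162). Under scaling by totals alone, *Psmb9* (adjusted p = 0.0664) and *Psmb10* (adjusted p = 0.0617) did not pass.

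Whether IFN-β changed a gene differently in the 2 cell types was tested by the interaction. *Psmb8* rose less in sh*Ppargc1b* than in shControl DCs, by -0.36 ± 0.06 on the log2 scale (adjusted p = 0.00970), and so did *Psmb9*, by -0.31 ± 0.06 (adjusted p = 0.0359). These were the 2 members of 50 that passed, where 0.73% of all genes passed, 0.0603% above 0 and 0.669% below 0. Since the test uses all 4 groups, it shares its libraries with the comparisons above and is not independent of them. *Psme2* had -0.27 ± 0.06 and missed the threshold (adjusted p = 0.0534), *Psme1* had -0.16 ± 0.05 (adjusted p = 0.229), and *Psmb10* had -0.02 ± 0.09, with a 95% interval of -0.19 to 0.16. *Psmd10*, *Psma5* and *Psma4* had -0.32 ± 0.08, -0.28 ± 0.07 and -0.29 ± 0.08 and did not pass (adjusted p = 0.0700, 0.112 and 0.125). Of all 50 members 42 had an interaction below 0, against 50.2% of all genes tested, and the median of the 45 other members was -0.09. No member was above 0 and past the threshold by edgeR, DESeq2 or limma voom, or at an unadjusted p under 0.05, and 13 were below 0 at an unadjusted p under 0.05. The share of all genes at an unadjusted p was not computed, so these 13 cannot be set against it.

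The interaction of *Psmb9* held in few of the fits with 1 library fewer: it was lost in 9 of 12, at adjusted p of 0.0550 to 0.145, and kept without treated shControl replicate 1, unstimulated sh*Ppargc1b* replicate 2 or treated sh*Ppargc1b* replicate 2. It was also lost under scaling by totals alone (adjusted p = 0.0801). That of *Psmb8* was lost without unstimulated shControl replicate 3 (adjusted p = 0.0506), so that no member passed in that fit. *Psmb8* passed under every other setting tried, and *Psme2* passed under several of them, which include DESeq2 (adjusted p = 0.00361).

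Markers of other cell types were compared with the knockdown as well. The summed level of 5 neutrophil markers was 33.8 to 64.6 CPM in unstimulated shControl and 68.5 to 115 CPM in unstimulated sh*Ppargc1b* libraries, and 28.6 to 66.5 and 61.5 to 110 CPM with IFN-β, with *Elane* and *Ly6g* below 1 CPM in every library. Of the 5 markers, 1 passed as higher in either state, and the summed levels overlapped with IFN-β. The summed level of 5 mast cell or basophil markers was 7.31 to 14.7 and 16.9 to 20.1 CPM without and 6.12 to 12.9 and 9.48 to 17 CPM with IFN-β, and that of 6 lymphocyte markers was 0.540 to 0.833 and 0.994 to 1.14 CPM without and 0.983 to 1.12 and 1.61 to 2.60 CPM with IFN-β, in shControl and sh*Ppargc1b* libraries in that order. In each of these lists 1 marker passed as higher in the knockdown in either state, of 5 and 2 tested. Of 6 macrophage markers, 1 was higher and 3 were lower without and 1 was higher and 2 were lower with IFN-β, and their summed level was 2050 to 2170 CPM in shControl and 1880 to 1920 CPM in sh*Ppargc1b* libraries. Of the 7 dendritic cell markers tested, 3 were higher in either state, and the summed level of the list overlapped, at 3750 to 4840 and 4230 to 5250 CPM. Erythroid markers summed to at most 0.128 CPM, and none was tested. The part of these cell types in the differences of the proteasome genes was not tested, and in these bulk samples fewer cells of a type and less RNA per cell cannot be told apart.

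The genes that work before and after the proteasome were described by 4 lists. Beside their counts stand the shares of all genes tested. With IFN-β 23.7% rose and 24.6% fell in shControl and 21.4% and 21.2% in sh*Ppargc1b* DCs. In the knockdown 12.4% were higher and 11.1% lower without IFN-β, and 11.5% and 12.7% with it. The interaction passed for 0.73%. Of 13 genes that supply peptides to MHC class I, 12 rose and 1 fell with IFN-β in both cell types. *Nlrc5*, the transactivator of MHC class I genes, rose by 2.65 ± 0.06 in shControl and 2.25 ± 0.06 in sh*Ppargc1b* DCs, and *Tap1*, the neighbour of *Psmb9* on the opposite strand, by 2.14 ± 0.05 and 1.76 ± 0.05. Tripeptidyl peptidase *Tpp2* was the gene that fell, by 0.13 ± 0.04 and 0.12 ± 0.04 (adjusted p = 0.00793 and 0.0143), calls that were lost without treated replicate 1 or 2 in shControl and treated replicate 1 in sh*Ppargc1b* DCs (0.0511 to 0.0837). Without IFN-β 8 of the 13 were higher and 1 lower in sh*Ppargc1b* DCs, and with IFN-β 3 were higher and 4 lower. The interaction passed for 3 of them, all below 0: *Tapbpl* (-0.50 ± 0.10, adjusted p = 0.0334), *Nlrc5* (-0.40 ± 0.08, adjusted p = 0.0333) and *Tap1* (-0.38 ± 0.07, adjusted p = 0.0263). Each was lost in 7 of the 12 fits that left out 1 library, at adjusted p of 0.0517 to 0.139.

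All 13 regulators of interferon signalling rose with IFN-β in both cell types, with medians of 0.94 and 0.81. *Irf1*, which encodes a factor that acts on immunoproteasome promoters, rose by 2.32 ± 0.04 and 2.06 ± 0.04. In the knockdown 4 of the 13 were higher and 1 lower without IFN-β, and 1 was higher and 3 lower with it. Of all genes, 23.6% passed without and 24.2% with IFN-β in either direction. *Irf1* had -0.08 ± 0.04 without IFN-β (adjusted p = 0.191) and was lower by 0.34 ± 0.04 with it (adjusted p = 2.62e-05), *Irf8* was higher by 0.37 ± 0.06 and 0.53 ± 0.06 (adjusted p = 0.000182 and 8.23e-06), and the interaction passed for 0 of the 13 by edgeR, for 5 by DESeq2 and 1 by limma voom, with 7 at an unadjusted p under 0.05. Of 20 proteasome genes outside the name rule, 5 rose and 10 fell with IFN-β in shControl and 4 rose and 9 fell in sh*Ppargc1b* DCs, and 7 were higher and 1 lower in the knockdown without and 6 and 1 with IFN-β. *Usp14*, a deubiquitinase of the 19S cap, fell by 0.50 ± 0.04 and 0.41 ± 0.04 with IFN-β, and *Nfe2l1*, which encodes a transcription factor of constitutive proteasome genes, rose by 0.35 ± 0.04 and 0.31 ± 0.04 and had 0.04 ± 0.04 and -0.01 ± 0.04 in the knockdown. Of 9 genes of ubiquitin and its first enzymes, 3 rose and 1 fell with IFN-β in each cell type, near the 48.2% and 42.6% of all genes that passed. The activating enzyme *Uba1* was among those that rose (0.73 ± 0.04 in shControl and 0.65 ± 0.04 in sh*Ppargc1b* DCs). In the knockdown 1 of the 9, *Uba6*, was higher in either state, by 0.13 ± 0.04 and 0.18 ± 0.04. The first of these calls was lost without unstimulated replicate 2 of either kind or shControl replicate 3 (adjusted p = 0.0795 to 0.107). No interaction passed in these last 2 lists by edgeR, DESeq2 or limma voom, with 1 gene on either side of 0 at an unadjusted p under 0.05 in the list of proteasome genes and 0 in that of ubiquitin.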

How the data were processed

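RNA-seq was measured in 12 libraries of bone marrow-derived DCs. The deposited values were raw counts per gene, which the authors made by trimming adapters, mapping read pairs to mm10 (GRCm38) with STAR and counting uniquely mapped pairs over GENCODE genes. The submitters' processing notes name Trim Galore 0.6.0 and STAR 2.7.8a. Whether counting was stranded is not given in the sources used here. Ribosomal RNA was depleted, and genes with near-identical copies lose the read pairs that fit both.

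The tests were run with edgeR 4.0.16 (R 4.3.3). Genes were kept by filterByExpr (minimum count 10, minimum total 15), libraries were scaled by TMM, and a quasi-likelihood model with a mean for each of the 4 groups was fitted. The Benjamini-Hochberg adjustment ran over 18228 genes, and the threshold was 0.05. The SE is the log2 fold change divided by the square root of F. The script was tested on simulated counts. Depth was 49919648 to 77726101 counts. Levels per kilobase used the union of exons of GENCODE M21 (GRCm38), in which windows of 100 bases were compared between transcripts of different genes.

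Members and lists were chosen with earlier results of these data known. Genes were named by a rule: the 5 inducible genes with *Psmb5*, *Psmb6*, *Psmb7* and *Psme3* in every comparison, up to 3 other members with the largest rise and 3 with the largest fall in each, the most and least abundant member of each role, up to 2 rises and 2 falls per list outside the rule with *Irf1*, *Nlrc5*, *Tap1*, *Pomp* and *Nfe2l1*, and *Ppargc1b*. Some genes that the rule names are not reported here. Members named beside these, such as *Psmd13* or *Psmd5*, were chosen after their values were seen. Alternatives were DESeq2 1.42.0 size factors and test, limma 3.58.1 voom, library totals alone, other filters, only the groups compared, a block, other gene lengths, and each library left out in turn.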

Additional observations from a re-analysis of the deposited data

Results flagged for a closer look

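The response of *Psmb8* to IFN-β differed between the 2 cell types by the interaction test: its log2 change in sh*Ppargc1b* DCs minus that in shControl DCs was -0.357, and it rose in both. For *Psmb9* the same difference was -0.312. The adjusted p were 0.00970 and 0.0359 by edgeR over all genes. The first was 0.0506 without unstimulated shControl replicate 3, and the second was 0.0550 or above in 9 of the 12 fits that left out 1 library.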

How the results depend on the processing

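For the genes named in the text, 2617 of 2803 values under the alternatives kept the direction and the side of the threshold, 127 lost a call and 22 gained one. Another 37 values, of 8 results, changed sign and were called in neither fit, and 0 values changed sign with a call in either. With library totals alone, the median log2 change with IFN-β was 1.32 for the inducible and -0.0905 for the other members in shControl DCs and 1.08 and -0.15 in sh*Ppargc1b* DCs, and that of the other members in the knockdown with IFN-β was 0.0637. With only the groups compared the last value was 0.0607. The interaction was called for 1 member with library totals alone, 4 with all genes of at least 1 count, 6 with DESeq2 and 5 with a block. The change of the *Psmb8* share with IFN-β was 15.5 points with the longest transcript and 9.23 without length correction in shControl DCs and 11.9 and 7.14 in sh*Ppargc1b* DCs, that of the *Psmb9* share 16.4 and 22.4 and 14.6 and 20.6, and that of the *Psmb10* share in sh*Ppargc1b* DCs 26.9 without length correction. The cause was not tested, but a share moves with the length used by its construction. Leaving out 1 library at a time gave 29 to 39 members called for IFN-β in shControl, 24 to 28 in sh*Ppargc1b*, 17 to 23 for the knockdown without and 6 to 12 with IFN-β, and 0 to 3 for the interaction. The medians of the inducible genes were then 1.53 to 1.59, 1.26 to 1.34, 0.15 to 0.21, -0.17 to -0.12 and -0.30 to -0.20 in that order, and those of the other members 0.0909 to 0.17, 0.03 to 0.08, 0.10 to 0.15, 0.0159 to 0.0613 and -0.11 to -0.06. The labels give no replicate numbers, so the block used runs of the library codes. Deviations of libraries in the same run correlated over 0.1 in 15 of 18 pairs and in 5 of 36 pairs of different runs, which is a hint from the data and not the design. With the block, *Psmb10* without IFN-β (adjusted p = 0.0190) and the interaction of *Psme2* (adjusted p = 0.0192) passed. Only the groups compared could not be run for the interaction, which needs all 4 groups. *Psmg3*, *Psma8* and *Psmc3ip* had 15 to 192 counts per library, which limits their precision.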
